A study of Caenorhabditis elegans with 2 samples.

Results

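A set of 10 genes linked to neuronal left/right asymmetry, most of them regulators of the ASE taste neurons, were examined for binding of LSY-2 in embryos of the nematode *Caenorhabditis elegans*. They are *unc-37*, *die-1*, *cog-1*, *nsy-7*, *lim-6*, *ceh-36*, *che-1*, *fozi-1*, *tbx-37* and *tbx-38*, and were taken by name as 10 of the 19985 annotated protein-coding genes. The set is called the 10 ASE genes for short, although *nsy-7* is known from the AWC olfactory neurons. The peaks assigned to a gene were all those with a summit between 5000 bp upstream of the annotated gene start and the 3′ end of the gene, here called the span. The spans of the 10 genes held 30 of the 30000 peaks in the list pooled from both replicates.

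The samples formed 1 group of 2 biological replicates, with no comparison group, so no test between groups was possible and none was run. Both came from strain OP367, which carries *unc-119(tm4063)* on chromosome III and the integrated transgene wgIs367, and both were mixed-stage embryos of both sexes, taken as whole animals of unknown age. The transgene expresses LSY-2 joined to enhanced green fluorescent protein (eGFP), and chromatin immunoprecipitation with sequencing (ChIP-seq) recovered the DNA bound to it. The labels name lsy-2 as the target of the antibody. ASE is a pair of neurons in a whole embryo, so binding in those cells cannot be told apart here from binding in all other cells.

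LSY-2 is a zinc finger transcription factor known from genetics to be needed for expression of the microRNA *lsy-6* in the left ASE neuron, ASEL. In ASEL, *lsy-6* represses *cog-1*, and the zinc finger factor DIE-1 keeps *lsy-6* on, whereas in the right neuron, ASER, COG-1 acts with the corepressor UNC-37 to keep this branch off. CHE-1 and the Otx-type homeodomain protein CEH-36 act in both neurons to set the ASE identity on which the asymmetry is laid.

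The signal value given to each peak is the authors' own and can be read within a single list only, so peaks are described by their rank on it, where 1 is the highest. Per the deposited metadata the lists of 30000 hold peaks together with background. A further list holds the 2568 peaks retained by the authors after scoring reproducibility with the irreproducible discovery rate (IDR), and these occupied pooled ranks 1 to 2568, with signals from 33.4 up to 5501. A pooled peak counted as found in a replicate where it overlapped a peak of that replicate's own list of 30000 by at least 1 bp. Of all pooled peaks, 45.5% were found in both replicates, 45.5% in 1 of them and 9.01% in neither.

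The sequences at the summits on which the results turn are given first, from the reference genome on build ce11 and on the strand of each gene, each reaching 100 bp to either side of the summit. The first group shows the highest-ranked peak of *die-1*, *nsy-7* and *cog-1*, because these had peaks found in both replicates; the window of *unc-37*, which had such peaks too, is not printed. Capitals mark the 11 bases centred on the summit. The *die-1* window (chrII:10065540-10065740, minus strand) and the *nsy-7* window (chrIV:8084528-8084728, minus strand) lie in introns, as does the *cog-1* window (chrII:14905220-14905420, plus strand).
*die-1*, pooled rank 4379: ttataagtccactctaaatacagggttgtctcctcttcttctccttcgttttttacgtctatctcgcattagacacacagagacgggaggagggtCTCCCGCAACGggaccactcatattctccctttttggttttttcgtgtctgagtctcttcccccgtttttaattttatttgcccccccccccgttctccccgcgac
*nsy-7*, pooled rank 6045: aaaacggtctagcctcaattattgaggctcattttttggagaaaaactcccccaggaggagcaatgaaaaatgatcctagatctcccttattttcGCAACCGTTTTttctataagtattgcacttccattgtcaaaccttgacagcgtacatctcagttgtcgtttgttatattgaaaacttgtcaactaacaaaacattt
*cog-1*, pooled rank 12949: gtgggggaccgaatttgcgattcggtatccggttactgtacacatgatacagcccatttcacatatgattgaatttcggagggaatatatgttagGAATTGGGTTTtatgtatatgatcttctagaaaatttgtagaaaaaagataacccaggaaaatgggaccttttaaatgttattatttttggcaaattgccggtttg

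The next pair shows the *die-1* peaks that came next in rank, on the minus strand at chrII:10065006-10065206 and chrII:10066241-10066441. They were chosen after their values were seen because they held a searched motif. Capitals mark TAATCC, the core bound by Otx-type homeodomains, in the first, and GGCTTC, the reverse complement of GAAGCC, in the second. GAAGCC is the core of the ASE motif bound by CHE-1.
*die-1*, pooled rank 5232: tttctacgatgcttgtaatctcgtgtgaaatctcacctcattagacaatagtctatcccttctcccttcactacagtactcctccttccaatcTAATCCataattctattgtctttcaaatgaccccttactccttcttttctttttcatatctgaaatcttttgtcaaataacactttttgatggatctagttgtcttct
*die-1*, pooled rank 9469: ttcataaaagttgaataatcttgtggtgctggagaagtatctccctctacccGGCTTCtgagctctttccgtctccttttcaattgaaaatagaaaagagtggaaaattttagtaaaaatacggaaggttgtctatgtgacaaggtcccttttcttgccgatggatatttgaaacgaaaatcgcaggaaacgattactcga

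The last pair shows the single peaks of *tbx-37* and *tbx-38*, related genes with an upstream peak each, so that their summit sequences can be compared, at chrIII:11228531-11228731 and chrIII:11787042-11787242 on the minus strand. Capitals mark the 11 bases centred on the summit.
*tbx-37*, pooled rank 17312: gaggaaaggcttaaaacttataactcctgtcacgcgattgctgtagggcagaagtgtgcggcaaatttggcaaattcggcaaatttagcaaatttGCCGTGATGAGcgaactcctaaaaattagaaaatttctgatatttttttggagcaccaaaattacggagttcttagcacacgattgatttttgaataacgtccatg
*tbx-38*, pooled rank 21217: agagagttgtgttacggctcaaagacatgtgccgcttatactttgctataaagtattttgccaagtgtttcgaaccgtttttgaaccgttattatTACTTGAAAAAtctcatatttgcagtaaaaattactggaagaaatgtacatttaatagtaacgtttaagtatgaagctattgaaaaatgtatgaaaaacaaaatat

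Most of the 10 genes had some peak of the pooled list, 4 had a peak found in both replicates, and 1 gene had an IDR peak. The shares of other genes given next are not matched for span length, which is taken up further below. A pooled peak lay in the span of 8 of the 10 genes, against 64.3% of the 19975 other protein-coding genes. A pooled peak found in both replicates lay in 4 of the 10, namely *cog-1*, *die-1*, *nsy-7* and *unc-37*, against 47.9% of the others. An IDR peak lay in 1 of the 10, *unc-37*, against 23.0% of the others. The 10000 highest-signal pooled peaks reached 3 of the 10, *die-1*, *nsy-7* and *unc-37*, against 44.2% of the others.

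**Figure D1:**
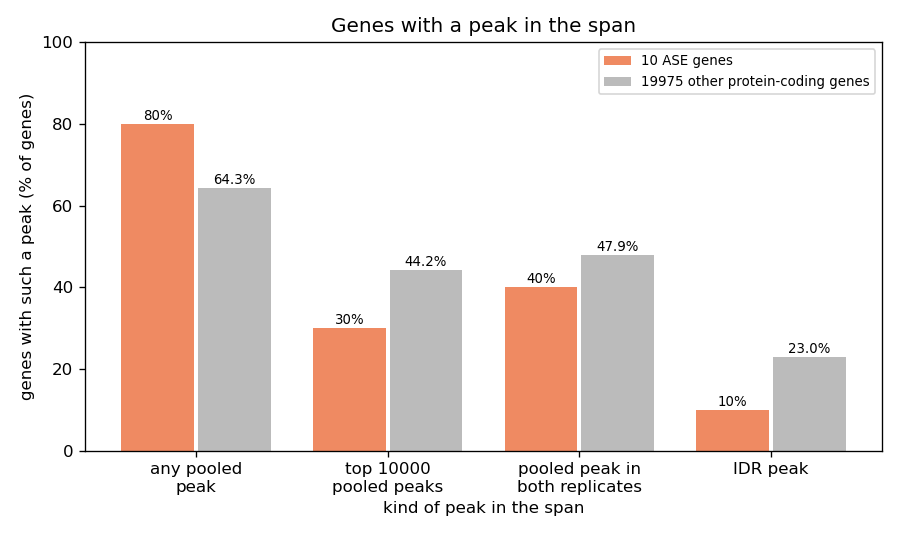
Share of genes, in percent, with a peak of each kind in the span, for the 10 ASE genes (orange, left bar of each pair) and the 19975 other protein-coding genes (grey, right bar). A pooled peak of any rank lay at 8 of the 10 genes against 64.3% of the others, and an IDR peak at 1 of the 10 against 23.0%. The shares are not matched for span length.

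The 10 spans were longer than most, with a median of 8368 bp against 7024 bp for the others, and longer spans held more peaks, so the counts were also read by span length. A peak found in both replicates lay in 0 of 1 ASE gene with a span of 6000 to below 7000 bp (37.6% of others of that length), in 1 of 2 from 7000 to below 8000 bp (45.8%), in 1 of 3 from 8000 to below 10000 bp (57.3%), in 2 of 3 from 10000 to below 15000 bp (68.4%) and in 0 of 1 of 15000 bp or more (82.8%). The share of other genes with an IDR peak in these length classes was 18.7%, 21.9%, 27.2%, 30.5% and 35.7%, and *unc-37*, in the middle class, was the only ASE gene with one. A pooled peak of any rank lay in 1 of 1, 2 of 2, 2 of 3, 3 of 3 and 0 of 1 ASE genes of these classes. Of the other genes, 46.4%, 35.8%, 24.7%, 16.7% and 7.72% had none. The 10 genes had a median of 2.5 pooled peaks against 2 for the others, and 0.299 peaks per kb over all their sequence against 0.287. The median density per gene was 0.315 peaks per kb for the 10 genes and 0.185 for the others, not matched for span length. In the 5 length classes above, the median density of the others was 0.149, 0.141, 0.247, 0.321 and 0.360 peaks per kb. The density at *cog-1*, *die-1*, *lim-6*, *nsy-7* and *unc-37* was above the median of the class, and at the rest of the 10 it was below. Among genes with any peak, the best peak of the gene had a median rank of 12617 for the 8 ASE genes and 4831 for the 12837 others. Of the peaks counted once per gene, 1 of 30 was an IDR peak, 3.33%, against 11.9% at the other genes. The median distance from the gene start to the nearest IDR summit was 16184 bp for the 10 genes and 15501 bp for the others.

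**Figure D2:**
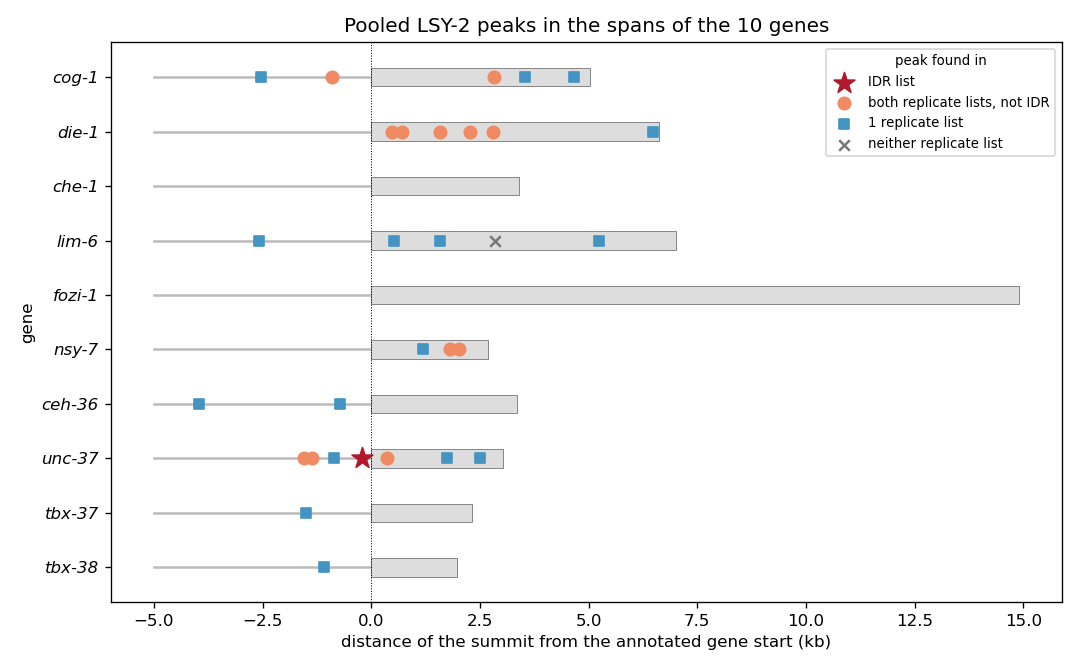
Map of the 30 pooled peaks by distance of the summit from the annotated gene start, in kb, with 1 row per gene, a grey bar for the gene body and a line for the 5000 bp upstream. Symbols show whether a peak was in the IDR list, in both replicate lists, in 1 or in neither; 5 both-replicate peaks of *die-1* lie within 2811 bp of its start, and the rows of *che-1* and *fozi-1* are empty.

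The corepressor gene *unc-37*, whose Groucho-type product works with COG-1 and many other repressors, had the strongest peak, and the most peaks with the span used here. It lies on chromosome I from 6742299 to 6745329 on the minus strand (WBGene00006773), and its span of 8031 bp held 7 pooled peaks, 0.872 per kb. Of the other protein-coding genes, 5.39% had more than 7. The IDR peak, from 6745354 to 6745733 with its summit 215 bp upstream of the start, had a signal of 41.3, rank 1996 in the pooled list, rank 2913 in replicate 1 and rank 1547 in replicate 2. In no other span of the 10 genes did a peak rank as high in both replicates, and the upper 1284 of the IDR list held no summit at any of the 10 genes. Within the top 2568 of its own list, replicate 1 had no summit at any of the 10 genes and replicate 2 had summits at *unc-37* and *die-1*. Doubling the upstream reach to 10000 bp raised the number of ASE genes with an IDR peak to 3, adding *lim-6* and *tbx-37*, against 30.6% of other genes.

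The next *unc-37* peak, with its summit 1353 bp upstream, had a signal of 26.8 and rank 3329. Its −log10 q of 2.46 was above the lowest in the IDR list, 2.32. Outside the IDR list, 993 pooled peaks were at or above that lowest value. At the other genes of the set no pooled peak reached it, and the highest value was 1.85, at *die-1*. The *unc-37* peak at 1353 bp ranked 15210 in replicate 1 and 2827 in replicate 2. The neighbouring pooled peak 1552 bp upstream, rank 9273, overlapped the same replicate peaks. These summits and another at 851 bp upstream, rank 20800 and found in replicate 1 alone, lay inside the body of the neighbouring coding gene *fnci-1*. The remaining 3 lay within *unc-37*, at rank 7932 in intron 2, found in both replicates, and at ranks 10321 in exon 5 and 13103 in intron 5, found in replicate 1 and nearer to the start of W02D3.12. Ending the span at the neighbouring gene left 4 of the 7 peaks, against 6 at *die-1*, and the replicate 1 list alone had 7 summits at *unc-37* and 10 at *die-1*. The peaks at *unc-37* were thus spread along the locus, with the strongest next to the annotated start.

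*die-1* had the next strongest peaks, and they were grouped inside the gene. The gene, on chromosome II from 10061302 to 10067917 on the minus strand (WBGene00000995), encodes the zinc finger factor that promotes the ASEL fate. Its span of 11616 bp held 6 pooled peaks, and 7.70% of other genes had more. The 5 peaks nearest the start, with summits 473, 701, 1576, 2277 and 2811 bp downstream of it, all lay in intron 1 of 5 of its longest transcript, an intron of 3364 bp, and all 5 were found in both replicates. A count added after the values were seen compared other long first introns: of the 525 other genes with one of at least 3000 bp, 46.3% had at least 1 both-replicate peak in it and 4.38% had at least 5. The cutoff of 5 was the count seen at *die-1* itself, so the 4.38% is a description and not a test. The peaks at 473 and 701 bp overlapped each other and the same replicate peaks, so the 5 are not separate regions. Overlapping peaks were not merged at the other genes either.

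The replicates gave these *die-1* peaks different weight. The peak at 2277 bp had a pooled signal of 21.6, rank 4379, but rank 29352 in replicate 1 against rank 2088 in replicate 2. The peak at 2811 bp had a signal of 19.1, rank 5232, with rank 14915 in replicate 1 and 3391 in replicate 2. Both ranked far better in replicate 2, where the first stood within the top 2568. The peak at 1576 bp, which holds the GAAGCC core shown above, had a signal of 13.6 and rank 9469. It ranked 9642 in replicate 1 and 14880 in replicate 2. The −log10 q of the peaks at 2277, 2811 and 1576 bp was 1.85, 1.42 and 0.63, below the lowest in the IDR list. The overlapping pair nearest the start ranked 18464 and 22829 in the pooled list, with the same replicate peaks at ranks 16212 and 23484. No pooled peak lay upstream of *die-1* within 5000 bp, although the replicate 1 list had 4 summits there and the replicate 2 list 1. The last pooled peak, in exon 6 and found in replicate 1 alone, had rank 28572, and its summit was nearer to the start of *stg-1*. The replicate 1 peak it overlapped, of rank 8176, also overlapped a pooled peak of rank 8135 whose summit was outside the span.

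*cog-1*, the Nkx6-type homeobox gene that promotes the ASER fate and is the target of *lsy-6*, had 5 peaks, all weaker than the 3 strongest of *die-1*. It lies on chromosome II from 14902493 to 14907533 on the plus strand (WBGene00000584), and its span of 10041 bp held 5 pooled peaks, with ranks from 12949 to 18994. The highest, in intron 3 of its longest transcript, had a signal of 11.4, rank 17022 in replicate 1 and rank 8415 in replicate 2. The peak 898 bp upstream, rank 14198, was also found in both replicates, at ranks 28313 and 9891. The other 3 were found in 1 replicate each, at 2543 bp upstream (rank 13084), in intron 3 (18994) and in exon 4 (14174), the last nearer to the start of R03C1.1. All 5 had signals between 9.09 and 11.4, close to the median of 10.5 over the whole pooled list. Their −log10 q ran from 0.26 to 0.42, below the lowest in the IDR list. The nearest IDR summit to the *cog-1* start was 67021 bp away, the longest such distance among the 10 genes.

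*nsy-7*, whose homeodomain-like product is known for left/right asymmetry of the AWC olfactory neurons, had its strongest peak toward the 3′ end. It lies on chromosome IV from 8083960 to 8086652 on the minus strand (WBGene00044508), and its span of 7693 bp held 3 pooled peaks, all inside the gene. The strongest, in intron 4 with its summit 2024 bp downstream of the start, had a signal of 17.4 and rank 6045. It overlapped a replicate 1 peak of rank 3505 and a replicate 2 peak of rank 18053, so it ranked better in replicate 1. The pooled peak beside it in exon 4, rank 17806, overlapped it and the same replicate peaks. This exon 4 peak starts at 8084642 and met the replicate 2 peak, which ends at 8084646, only at its edge. A further replicate 1 peak, of rank 12916, overlapped both pooled peaks. The third pooled peak, in intron 2 with rank 16255, was found in replicate 2 alone.

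**Figure D3:**
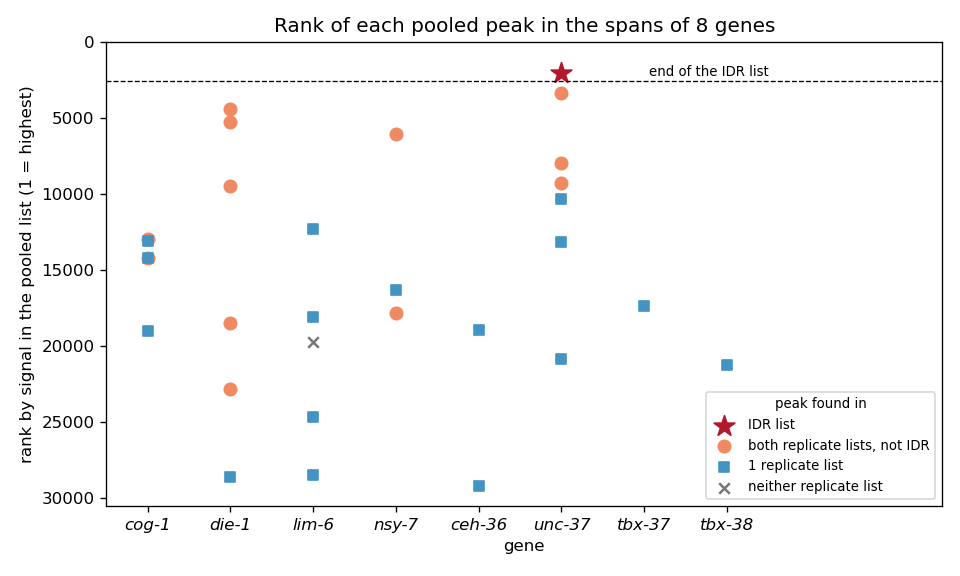
Rank by signal in the pooled list (1 is the highest, at the top) of each pooled peak in the spans of the 8 genes that had one. The dashed line marks the end of the IDR list at rank 2568; 1 peak of *unc-37* lies above it, and the peaks of *cog-1*, *lim-6*, *ceh-36*, *tbx-37* and *tbx-38* all lie at rank 12285 or beyond.

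*lim-6*, a LIM homeobox gene expressed in ASEL, had 5 pooled peaks and none that both replicates shared. Its span on chromosome X (gene from 1072452 to 1079452, plus strand, WBGene00002988) was 12001 bp long. The highest-ranked peak, at 12285 in intron 1, was found in replicate 2, at rank 16837. The peak in exon 2, pooled rank 24632, was found in replicate 1, at rank 5940. The peak 2587 bp upstream (rank 18039) was found in replicate 1 alone and the peak in exon 6 (rank 28489) in replicate 2 alone. The peak of rank 19716 in intron 4 overlapped no peak of either replicate list, the only 1 of the 30 for which that was so. The summit upstream of *lim-6* was nearer to the start of *mksr-1*, 736 bp upstream of it, and the summit in exon 6 was nearer to the start of *pfn-3*.

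*ceh-36*, the Otx-type homeobox gene, had 2 pooled peaks, both upstream and each found in 1 replicate. The gene is on chromosome X from 14183221 to 14186566 on the minus strand (WBGene00000457). The peak 3950 bp upstream had rank 18940 and rank 28952 in replicate 1, and the peak 723 bp upstream had rank 29175, near the end of the list, and rank 13190 in replicate 2.

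*che-1* and *fozi-1*, both zinc finger genes, had no pooled peak in the span. CHE-1 directs the expression of the shared ASE genes, and FOZI-1 acts in ASER to hold down ASEL genes. The *che-1* span was 8390 bp (gene on chromosome I from 6517529 to 6520918, minus strand, WBGene00000483), and 75.3% of other genes with spans from 8000 to below 10000 bp had a pooled peak. The *fozi-1* span was 19896 bp (gene on chromosome III from 9281780 to 9296675, plus strand, WBGene00010453). A pooled peak lay at 92.3% of other genes with spans of 15000 bp or more, and of the 413 whose span was at least as long as that of *fozi-1*, 22 (5.33%) had none.

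The replicate lists had summits at *fozi-1*, which has the longer span, and none at *che-1*. Of other genes of any span length, 73.1% had a replicate 1 summit and 71.1% a replicate 2 summit. These shares were not split by span length, so they are not matched to either gene. The *fozi-1* span held 2 summits of replicate 1, at ranks 24446 and 27573, and 4 of replicate 2, at ranks from 13400 to 26073, and none of these overlapped a pooled peak. A pooled peak of rank 29576 lay just outside, 5085 bp upstream of the *fozi-1* start. The nearest IDR summits were 21150 bp from the *che-1* start and 51651 bp from the *fozi-1* start.

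*tbx-37* and *tbx-38* encode T-box factors that act in early embryonic descendants of the ABa blastomere, where they prime the *lsy-6* locus for later expression in ASEL. Each gene, on chromosome III from 11224808 to 11227125 and from 11784082 to 11786061, both on the minus strand (WBGene00006556 and WBGene00006557), had 1 pooled peak, upstream and found in replicate 1 alone. The *tbx-37* peak, 1506 bp upstream, had rank 17312 and rank 23057 in replicate 1. The *tbx-38* peak, 1081 bp upstream, had rank 21217 and rank 11794 in replicate 1, and its summit was nearer to the start of C24H11.1. The genes are related, so reads could have been shared between them. The upstream 5000 bp of the genes had 0 words of 30 bases in common with the other span, and the gene bodies shared 33 such words, 1.44% of those of *tbx-37* and 1.69% of those of *tbx-38*.

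Agreement between replicates was greater at better pooled ranks, which themselves draw on both replicates and so are not independent of it. All 8 of the 30 peaks ranked 10000 or better were found in both replicates, against 99.6% of all pooled peaks up to rank 2568 and 74.7% of those from 2569 to 10000. From rank 10001 to 20000, 4 of 15 were found in both, against 37% of all pooled peaks, and beyond 20000 it was 1 of 7 against 18.4%. In all, 13 of the 30 were found in both replicates (43.3%, against 48.0% at other genes), 11 in replicate 1 alone, 5 in replicate 2 alone and 1 in neither. Of the 13, 8 ranked better in replicate 2 and 5 in replicate 1. Over the 13656 pooled peaks found in both, 49.9% ranked better in replicate 2.

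**Figure D4:**
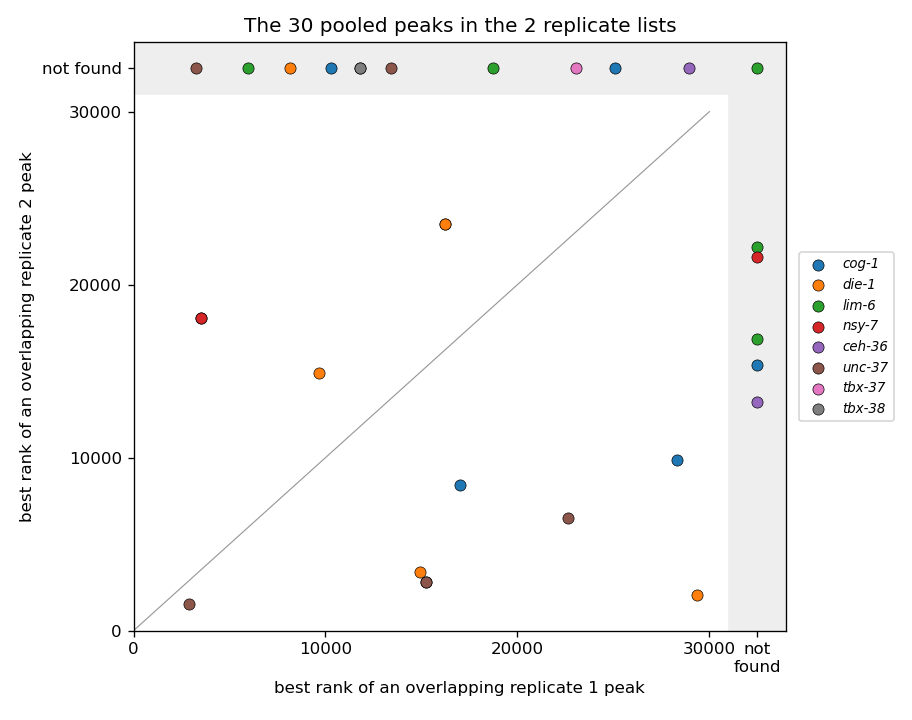
Best rank of an overlapping peak in the list of replicate 1 (horizontal) and replicate 2 (vertical) for the 30 pooled peaks, coloured by gene; the grey bands hold peaks found in no list on that axis, and the diagonal marks equal ranks. The IDR peak of *unc-37*, at 2913 and 1547, lies nearest the corner of high ranks; pairs of overlapping peaks of *die-1*, *nsy-7* and *unc-37* share a point, and a point each of *unc-37* and *tbx-38* nearly coincide at the upper edge.

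The replicate lists also held summits in these spans that the pooled list lacked. How often this holds over the whole replicate lists was not counted, so the counts here cannot be read as particular to the 10 genes. Replicate 1 had 34 summits in the 10 spans, of which 10 overlapped no pooled peak, and replicate 2 had 29, of which 11 overlapped none. Among these 21, no replicate 1 peak overlapped a replicate 2 peak. The 21 were picked for lacking a pooled peak, and the pooled list draws on both replicates, so this result is not independent of the choice. A summit of replicate 2 at 159 bp upstream of *cog-1*, rank 10177, and another at 199 bp upstream of *tbx-37*, rank 13995, were among the 21. Both lay near a gene start where the pooled list had no summit.

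A larger share of the 30 peaks than of the peaks at other genes lay inside the gene, a difference that was not tested. Of the 30, 11 (36.7%) were upstream of the gene, 13 (43.3%) in an intron and 6 in an exon, against 62.9% upstream, 27.6% in introns and 9.46% in exons for gene and peak pairs at other genes. Upstream sequence made up 49.8% of the spans of the 10 genes and 60.8% of those of the others. A promoter window from 1000 bp upstream to 300 bp downstream of the gene start held 4 summits, at *cog-1*, *ceh-36* and *unc-37*. Of all 30, 7 were nearer to the start of another protein-coding gene. Neither share of the 30 was counted for peaks at other genes, so neither can be read as particular to these 10. Counted by gene, the promoter window held a both-replicate peak at 2 of the 10 and 24.3% of other genes. It held an IDR peak at 1 of the 10 and 12.1% of other genes.

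The base composition of the 30 windows of 201 bp was close to that of the list. They had a median GC content of 34.3%, with a range of 25.4% to 51.2%, against a median of 33.8% over all pooled summits (quartiles 28.9% and 39.8%). The highest-ranked *die-1* window stood high in that range at 48.8% and carried a run of 11 C. By a count also added later, soft-masked sequence, which marks repeats and low complexity in the reference, held 14 of the 30 summits and 44.6% of all pooled summits. The *tbx-37* window printed above was soft-masked over 57.2% of its length, and the *unc-37* window at the IDR summit over 0.00%.

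Motif matches were searched on both strands of these windows, and a match describes letters and not a bound site. GAAGCC was in 2 of the 30, at *die-1* (rank 9469) and *cog-1* (rank 14174), against 4.43% of windows at all pooled summits, and GAAACC, the other form of the ASE core, was in the window of the *unc-37* IDR peak and no other, against 8.63%. TAATTA, a core bound by many homeodomains, was in 4 windows against 10.8%, and TAATCC in 2, both in the *die-1* intron, against 7.02%. AGGTGTGA, a T-box site, was in 0, against 0.390% of all windows. None of the printed windows of *nsy-7*, *tbx-37* or *tbx-38* and none of the highest-ranked windows of *die-1* and *cog-1* held any of these letters.

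Among 21 other protein-coding genes of the ASE pathway, 9 had a pooled peak in the span, all 9 had one found in both replicates, and 4 had an IDR peak, where the shares over protein-coding genes outside the set of 10 were 64.3%, 47.9% and 23.0%. The 4 were *lsy-2* itself (best rank 42), where DNA of the transgene and of the native gene cannot be told apart in these lists, the Pax6 homologue *vab-3* (386), the MYST acetyltransferase gene *lsy-12* (866) and *lsy-22* (2426). *lsy-22*, whose product is related to Groucho and acts with UNC-37, had its IDR peak in the gene body, 6903 bp downstream of the start, with a signal of 35.1 and ranks of 6173 and 1869 in the replicates. Of the 9 receptor guanylyl cyclase genes, which encode the sensory receptors that differ between ASEL and ASER, 1 had a pooled peak, against the same 64.3%. Their spans ran from 9447 to 10820 bp. Of other genes with spans from 8000 to below 10000 bp, 24.7% had no pooled peak, and from 10000 to below 15000 bp, 16.7%. The receptor gene with a peak was *gcy-22*, with 5 peaks, 2 of them found in both replicates, and a best rank of 10713.

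The microRNA gene *lsy-6*, on chromosome V from 10647232 to 10647304 by RefSeq coordinates, had 4 pooled peaks in its span of 5073 bp. Of these, 1 was found in both replicates, none was in the IDR list, and the best had rank 6746. Protein-coding genes outside the set of 10 with spans under 6000 bp had a median of 1 pooled peak, and 46.5% had none. In the next length class, 6000 to below 7000 bp, 37.6% had a both-replicate peak and 18.7% an IDR peak. The best ranks at *die-1* and *cog-1* were 4379 and 12949, and whether the order of these ranks has a meaning was not tested.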

How the data were processed

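ChIP-seq peak lists of 2 biological replicates were used, as the authors deposited them on build ce11. Per the deposited metadata, the IDR list was made from both replicate lists and the pooled list. How reads were aligned, which program called peaks and at what IDR cutoff is not stated in the labels or headers. The deposited signal value of a peak was used for ranks within 1 list; the deposited −log10 q-value was only quoted; the summit offset is in bp. Read depth is unknown from these lists. The lists on ce10 and the possible controls named in the labels were not used here.

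Genes came from Ensembl release 115 on WBcel235, the assembly of ce11, and all peaks ended within its chromosomes. A summit counted as exonic where it lay in an exon of any transcript of the gene. Intron and exon numbers and lengths were those of the transcript of largest extent. Sequences came from RefSeq's copy of WBcel235. The 19985 genes include 12 mitochondrial ones. A peak belonged to every span that held its summit, so a peak can count for several genes. Counts were set beside those of all other protein-coding genes, without a test, since the samples form 1 group and genes and peaks are not replicates. The counting was tested on simulated summits. The 10 genes and the pathway list were chosen with earlier results of these data known.

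All 10 genes are named, with every IDR peak, at least their 3 best peaks, pathway genes with an IDR peak, and *lsy-6*; neighbours that hold a summit or start nearer to it are named too; *gcy-22* was singled out after its values were seen. The alternatives were other upstream reaches, a span ending at the neighbouring gene, a promoter window, overlap in place of summits, merged peaks, stricter lists and overlaps, and each replicate alone. Analyses used Python 3.11.15, numpy 2.4.6 and pandas 2.3.3.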

Additional observations from a re-analysis of the deposited data

How the results depend on the processing

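The summed count of peaks and the numbers of ASE genes with a both-replicate or an IDR peak stayed within 1.5 times with an upstream reach of 1000 or 2000 bp, with the span ended at the next gene, with any overlap of 1 bp and with overlapping peaks merged. With a reach of 10000 bp there were 50 pooled peaks in the spans, 8 genes had one found in both replicates and 3 had an IDR peak, with *lim-6* and *tbx-37* added to *unc-37*. The promoter window alone left 4 pooled peaks and 2 genes with a both-replicate peak, *cog-1* and *unc-37*. The 10000 highest pooled peaks left 8 peaks, the 10000 highest of each replicate left 1 gene, *unc-37*, with a both-replicate peak, and the top 1284 IDR peaks left 0 genes. An overlap of 50% of each peak left 3 genes, without *cog-1*.

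With the list of 1 replicate in place of the pooled list, the count of peaks ran from 29 to 34, and the number of genes with a peak in the top 2568 ran from 0 (without replicate 2) to 2 (without replicate 1, *die-1* and *unc-37*), with 22.5% to 22.6% of other genes.

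Among other genes, the share with an IDR peak was 13.8%, 16.7% and 30.6% with reaches of 1000, 2000 and 10000 bp, 14.9% with the span ended at the next gene, 12.1% in the promoter window, 23.8% with any overlap and 13.6% with the top 1284. The share with a both-replicate peak was 32.8%, 37.8% and 59.5% with the 3 reaches, 35.3% with the span ended at the next gene, 24.3% in the promoter window, 49.3% with any overlap, 39.8% with 10000 pooled peaks, 42.1% with 50% overlap and 31.5% with 10000 replicate peaks. Of 100 counts of single genes under alternatives, 64 stayed within 1.5 times. Leaving out either replicate moved *lim-6*, *fozi-1* and *tbx-37*, without replicate 1 *tbx-38* and without replicate 2 *die-1* moved too. The cause of these shifts was not tested. No paired analysis was possible because there is 1 group. Read depth is unknown, so whether an empty span reflects no binding or too few reads cannot be told. A peak found in both replicates could not be counted without either one.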
